A study of Arabidopsis thaliana with 12 samples.

Results

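Type-A response regulators are the negative feedback arm of cytokinin signalling in Arabidopsis. Cytokinin is sensed by membrane histidine kinases, the signal passes through phosphotransfer proteins to DNA-binding type-B response regulators, and these switch on type-A genes, whose short proteins lack a DNA-binding output domain and damp the pathway. In the shoot and floral meristems the meristem regulator WUSCHEL represses several type-A genes, and auxin signalling acts on ARR7 and ARR15, so the family is a meeting point of hormone signals in the tissue sampled here. DELLA proteins, the nuclear repressors of gibberellin responses, do not contact DNA on their own and reach it through partner transcription factors, type-B response regulators among them.

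The 10 genes described are ARR3, ARR4, ARR5, ARR6, ARR7, ARR8, ARR9, ARR15, ARR16 and ARR17, of 27444 nuclear protein-coding genes in the RefSeq gene table. They were taken by symbol or alias, and a peak was assigned to a gene where its summit lay inside the gene or within 1000 bp of it. The lists held 35 such peaks, with 9 in gai-YPet replicate 1, 13 in gai-YPet replicate 2, 10 in gai-YPet cuc2-1 replicate 1, 3 in gai-YPet cuc2-1 replicate 2 and 0 in either Ler list.

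Chromatin immunoprecipitation with an anti-GFP antibody was followed by sequencing (ChIP-seq) of inflorescences, from which open flowers and the oldest buds had been removed. All plants were labelled as ecotype Landsberg erecta (Ler). The 3 genotypes were non-transgenic Ler, pGAI:gai∆17-3xYPet (called gai-YPet) and pGAI:gai∆17-3xYPet cuc2-1 (called gai-YPet cuc2-1), with 2 independent biological replicates each. The transgene drives from the GAI promoter a yellow-fluorescent-tagged DELLA protein that lacks 17 residues and so resists gibberellin-triggered degradation. The cuc2-1 allele affects CUC2, a NAC transcription factor of organ boundaries. The labels name line L306 for both tagged genotypes, so the transgene is represented by a single line, and no untagged cuc2-1 plants are among the samples.

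The deposited data are 1 peak list per ChIP library, with 7042 and 11289 peaks in gai-YPet, 8193 and 3666 in gai-YPet cuc2-1 and 234 and 406 in Ler (replicates 1 and 2). Peak lists carry no read counts, so sequencing depth could not be assessed and the absence of a peak means only that none passed the authors' threshold. The fold enrichment and the q-value of a peak are the authors' own values and are read within a list. The samples also include 6 input libraries, 1 per ChIP library, and what the fold was taken against is not known here. A peak's percentile is its position by q-value in its own list, 100 being the strongest. A weaker peak can come from weaker binding or from binding in fewer cells of the inflorescence, and these cannot be told apart here. Peak lists hold no expression values with which the tissue label could be checked.

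In gai-YPet, 7 of the 10 type-A genes were bound, that is, each replicate list had a peak at the gene, the replicate peaks overlapped by at least 1 bp and neither touched a Ler peak. Across all protein-coding genes this held for 17.9%, and for 18.4% of the genes within the length range of the 10 members. The 7 were ARR4, ARR5, ARR7, ARR8, ARR9, ARR15 and ARR16. List by list, 7 members had a peak in gai-YPet replicate 1 (18.8% of all genes) and 8 in replicate 2 (31.8% of all genes), 7 in gai-YPet cuc2-1 replicate 1 (20.8%) and 3 in replicate 2 (10.4%). In the untagged Ler lists 0 members had a peak, against 0.0510% and 0.215% of all genes, and the Ler summit closest to any member lay 37556 bp away, from ARR7. The members were chosen with earlier results of these data known, so these counts were not tested.

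**Figure D1:**
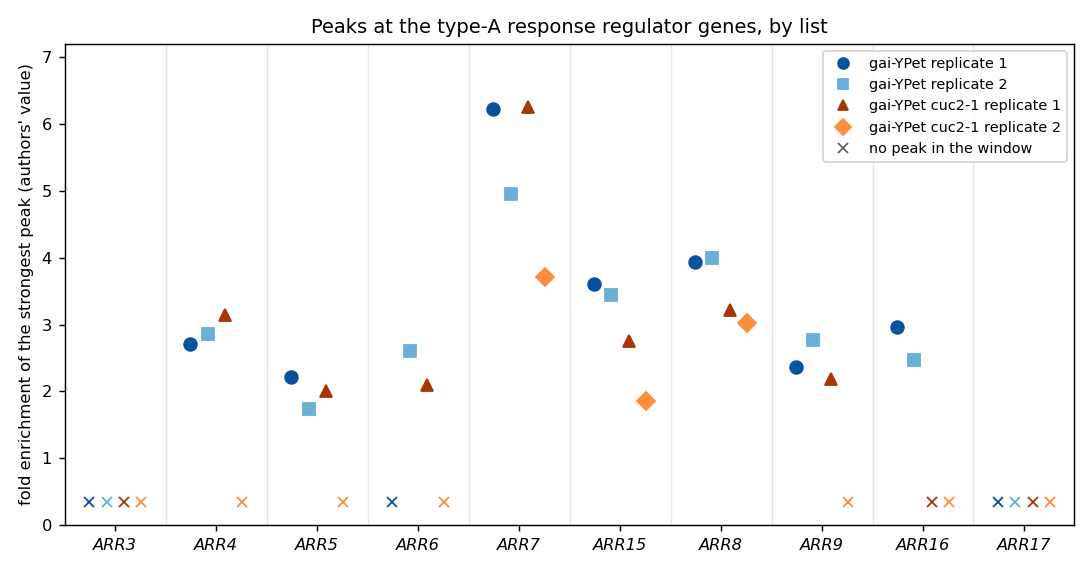
Fold enrichment of the strongest peak, by q-value, within 1000 bp of each type-A gene in the 4 tagged lists (y axis, the authors' value; x axis, gene), with a cross where a list held no peak; 1 point is 1 list. ARR7 stood highest in all 4 lists, from 3.71 to 6.25, and ARR3 and ARR17 had no peak in any.

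ARR7 and ARR15 are a closely related pair that acts in the shoot meristem. At ARR7 the strongest peak had a fold of 6.23 and 4.95 in gai-YPet replicates 1 and 2 and of 6.25 and 3.71 in gai-YPet cuc2-1 replicates 1 and 2. It was the highest fold of any member in each of the 4 lists, and the ranges of the genotypes overlapped. Its percentiles were 92.1, 93.4, 95.1 and 86.3 in the same order. The peak of gai-YPet replicate 1 lay at chr1:6579083-6579624 (build TAIR10). The 4 summits lay 71, 78, 51 and 122 bp beyond the higher-coordinate end of the gene. Gene ends come from a table without strand, so start and end of transcription could not be assigned.

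A weaker peak accompanied the main one at ARR7. Its fold was 2.70 in gai-YPet replicate 1 and 2.13 in gai-YPet cuc2-1 replicate 1, with summits 684 and 682 bp from the gene. In gai-YPet replicate 2 a single peak of 1260 bp, at chr1:6578890-6580149, spanned both places, whereas the main peak was 542 bp wide in replicate 1. With a reciprocal overlap of 50% required, ARR7 was not called in gai-YPet. The deposited list of gai-YPet cuc2-1 replicate 2 held the main peak only.

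At ARR15 the peak had a fold of 3.60 and 3.44 in gai-YPet, against 2.76 and 1.86 in gai-YPet cuc2-1. Both mutant folds were below both gai-YPet folds, but the lists differ in length and in their typical fold. The percentiles were 59.5 and 73.6 without and 57.5 and 1.28 with the cuc2-1 allele, so that in the last list the peak stood close to the authors' threshold, with a −log10 q of 3.09 where the lowest value in that list was 2.13. The gai-YPet replicate 1 peak lay at chr1:28132852-28133258. The summits of the first 3 lists lay inside the gene, 17, 3 and 1 bp from its higher-coordinate end, and that of gai-YPet cuc2-1 replicate 2 lay 125 bp outside it. These summits were also within 1000 bp of OTP43, a gene for an organelle RNA-processing protein, and a peak list does not say which neighbour it belongs to.

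ARR8 and ARR9 form another related pair of the family. ARR8 had the second highest fold of the family in each list, namely 3.93 and 4.0 without and 3.21 and 3.03 with the cuc2-1 allele. Both gai-YPet values were above both mutant values, again from lists that differ in length and in their typical fold. This strongest peak lay on the higher-coordinate side, at chr2:17224981-17225551 in gai-YPet replicate 1, and its summit was 521, 486, 516 and 505 bp from the gene in the 4 lists. Its percentiles were 66.5, 81.9, 69.1 and 68.4, so by percentile the genotypes overlapped.

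The ARR8 gene was flanked on both sides. On the lower-coordinate side a further peak had folds of 3.30, 3.22 and 3.21 in gai-YPet replicates 1 and 2 and gai-YPet cuc2-1 replicate 1, with summits 559, 585 and 518 bp away, and gai-YPet cuc2-1 replicate 2 had none there. No other protein-coding gene lay within 1000 bp of either set of summits. The higher-coordinate summits were also within 1000 bp of the non-coding genes AT2G09250 and AT2G41312, which were singled out after the values were seen.

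At ARR9 the peak found in both gai-YPet lists had folds of 2.37 and 2.77, and 2.18 in gai-YPet cuc2-1 replicate 1. The folds of these 3 lists were close together, but the percentiles were 12.4 and 56.5 in gai-YPet and 23.6 in gai-YPet cuc2-1 replicate 1. The list of gai-YPet cuc2-1 replicate 2 held no peak. The summits lay inside the gene, 8, 38 and 50 bp from its higher-coordinate end, in the peak that gai-YPet replicate 1 placed at chr3:21111409-21111705. They were shared with the window of CBL, a gene for cystathionine beta-lyase of methionine synthesis. The longest list, gai-YPet replicate 2, alone held 2 more peaks on the other side of ARR9, with folds of 2.22 and 2.26 and summits 801 and 154 bp away.

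**Figure D2:**
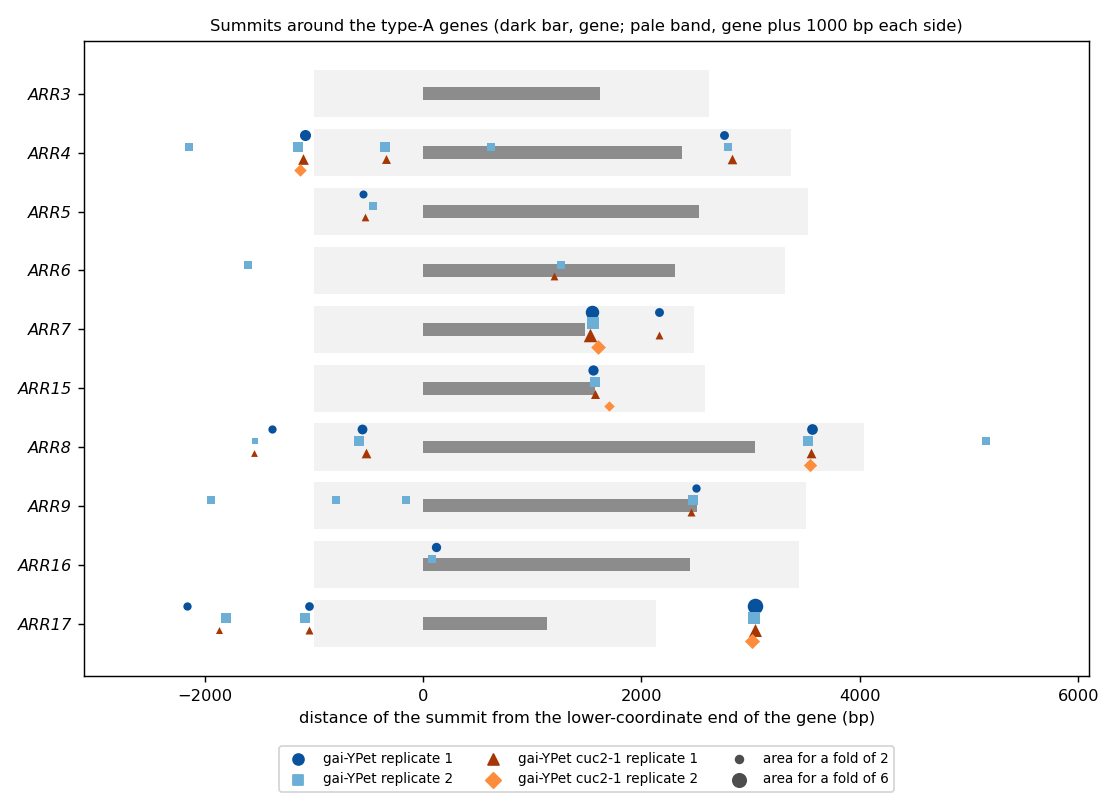
Summits of all peaks within 3000 bp of each type-A gene in the 4 tagged lists (x axis, distance in bp from the lower-coordinate end of the gene; marker area, the authors' fold; dark bar, gene; pale band, gene plus 1000 bp on each side). Summits of different lists lay near each other at ARR4, ARR5, ARR6, ARR7, ARR8, ARR9, ARR15 and ARR16. At ARR15 the summit of gai-YPet cuc2-1 replicate 2 lay 125 bp outside the gene and the others inside it. The strong summits 1880 to 1911 bp from ARR17 fell outside its window.

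ARR5 and ARR6 are rapid cytokinin-response genes, and the ARR5 promoter is widely used as a cytokinin reporter. ARR5 was the weakest of the bound members, with folds of 2.21 and 1.74 in gai-YPet and 2.01 in gai-YPet cuc2-1 replicate 1. The percentiles were 9.66, 12.9 and 12.2, so the peak was among the weaker ones in all 3 lists that held it. The gai-YPet replicate 1 peak lay at chr3:17757790-17758043. The 3 summits were 545, 459 and 533 bp from the lower-coordinate end of the gene and also within 1000 bp of EDS1, a regulator of plant immunity.

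ARR6 did not meet the call in either genotype, since each genotype had a peak in 1 list only. The fold was 2.60 in gai-YPet replicate 2 and 2.09 in gai-YPet cuc2-1 replicate 1, and both summits were inside the gene. The summits, at positions 25253272 and 25253204 of chromosome 5, also fell in the window of AT5G62910.

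ARR3 and ARR4 are a pair for which roles in the circadian clock and, for ARR4, in binding to the photoreceptor phytochrome B are known. ARR3 had no peak within 3000 bp in any list. At ARR4 the peak common to both gai-YPet lists had folds of 2.71 and 2.69, with summits 389 and 417 bp from the higher-coordinate end, and gai-YPet cuc2-1 replicate 1 had a fold of 3.14 there at 461 bp. The mutant value was the highest of the 3, and gai-YPet cuc2-1 replicate 2 had no peak in the window. The gai-YPet replicate 1 peak lay at chr1:3444641-3444890. On the opposite side a peak with a fold of 2.86 in gai-YPet replicate 2 and 2.71 in gai-YPet cuc2-1 replicate 1 was absent from gai-YPet replicate 1, and a peak inside the gene, with a fold of 1.75, was in gai-YPet replicate 2 only.

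ARR16 and ARR17 are another pair of short type-A proteins, ARR16 being known from the stomatal lineage. ARR16 was the member bound in gai-YPet for which neither mutant list had a peak, as was the case for 388 of all 4905 bound genes (7.91%). Its folds were 2.96 and 2.47 in gai-YPet, with percentiles of 41.2 and 47.8, so it was below the middle of both lists. The replicate 1 peak lay at chr2:16969712-16969931, and the summits were inside the gene, 118 and 80 bp from its lower-coordinate end. They were also within 1000 bp of AT2G40660.

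ARR17 had no peak in its window, and the 1000 bp limit decided this. The nearest summits were 1045 and 1082 bp from the gene in gai-YPet and 1048 bp in gai-YPet cuc2-1 replicate 1, with folds of 2.59, 2.85 and 2.19. A region 1880 to 1911 bp away on the other side had, in each list, a higher fold than any bound member other than ARR7. Its values were 8.23 and 4.95 in gai-YPet, against 5.72 and 3.93 in gai-YPet cuc2-1. Those of ARR7 were 6.23 and 4.95, then 6.25 and 3.71, so the region was not below ARR7 in every list. The summits of this region fell in the windows of WRKY70, a transcription factor gene of defence responses, and AT3G56390. At ARR4, summits 1080 and 1141 bp (gai-YPet) and 1095 and 1129 bp (gai-YPet cuc2-1) from the gene were likewise just outside, with folds of 4.17, 3.55, 3.89 and 2.68, and they were in the window of GLP7. Just inside the limit, the farthest assigned summits were those at 801 bp from ARR9 and 684 bp from ARR7.

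The bound members spread over the whole range of strength. Strength was taken as the mean, over the 2 gai-YPet lists, of the percentile of the gene's strongest peak found in both. It was 92.7 for ARR7, 74.2 for ARR8, 66.6 for ARR15, 44.5 for ARR16, 38.2 for ARR4, 34.5 for ARR9 and 11.3 for ARR5. In both lists ARR7 came first, ARR8 next, then ARR15, and ARR5 came last, whereas ARR4, ARR9 and ARR16 stood in another order in replicate 2 than in replicate 1. ARR7 ranked 529 among the 4905 genes bound in gai-YPet. The median strength of the 7 members was 44.5, against 65.8 for all bound genes, and 4 of the 7 lay below the latter.

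At the 7 bound members the leading summit of gai-YPet replicate 1 lay inside the gene for 3 (31.7% of all bound genes) and within 300 bp of a gene end for 4 (47.7% of all bound genes). The leading summits of the replicates lay 7 to 86 bp apart, with a median of 30 bp, against a median of 25 bp over all bound genes. They were closest at ARR7, with 7 bp, and farthest apart at ARR5, the weakest of the 7, with 86 bp. For 4 of the 7 the leading summit also lay in the window of another protein-coding gene, as it did for 50.3% of all bound genes.

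The comparison of gai-YPet with gai-YPet cuc2-1 describes which members had peaks in the lists without and with the cuc2-1 allele. Whether the tagged DELLA protein needs CUC2 at these genes was not tested. In gai-YPet cuc2-1, 3 of the 10 members were bound, ARR7, ARR8 and ARR15, against 10.0% of all genes and 10.4% of those within the members' length range. These 3 were the members with peaks in all 4 tagged lists, which 9.72% of all genes had. ARR4, ARR5 and ARR9 had peaks in 3 lists (7.27% of all genes) and ARR6 and ARR16 in 2 (4.84%). ARR3 and ARR17 had peaks in none, as was the case for 66.8% of all genes. Without gai-YPet cuc2-1 replicate 2, the shortest tagged list, 7 members had a mutant peak, namely ARR4, ARR5, ARR6, ARR7, ARR8, ARR9 and ARR15, against 20.8% of all genes. Without gai-YPet cuc2-1 replicate 1, 4 of the 7 members called in gai-YPet lacked a mutant peak (ARR4, ARR5, ARR9 and ARR16) in place of 1, against 45.7% of all genes bound in gai-YPet.

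List length moved with the count. When each tagged list was reduced to its 3666 strongest peaks, the length of the shortest, 3 members were bound in gai-YPet (9.55% of all genes) and 3 in gai-YPet cuc2-1 (8.77% of all genes). They were ARR7, ARR8 and ARR15 in both genotypes, and 0 members bound in gai-YPet then lacked a mutant peak. The share over all bound genes is not given for the reduced lists. In the full lists, few genes of the strength groups of ARR15, ARR8 and ARR7 (described below) lacked a mutant peak, namely 1.22%, 0.306% and 0%.

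In these reduced lists the percentile of ARR7 was 84.8 and 79.6 in gai-YPet, against 89.1 and 86.3 in gai-YPet cuc2-1, a difference of -5.47 (gai-YPet minus gai-YPet cuc2-1). The mutant values were both higher, and the exact permutation test over the 4 lists gave the smallest two-sided p that 2 against 2 lists allow, 0.333 (0.5 after Benjamini-Hochberg adjustment over the 3 genes). ARR15 went the other way, with 22.2 and 18.7 in gai-YPet, against 5.01 and 1.28 in gai-YPet cuc2-1, a difference of 17.3 with the same exact p of 0.333 (adjusted 0.5). ARR8 had 35.7 and 44.2 in gai-YPet, against 30.9 and 68.4 in gai-YPet cuc2-1, so the genotypes overlapped (difference -9.70, exact p = 1, adjusted 1). No difference could pass 0.05 in a design of this size, so these are descriptions of 4 lists. Read in the full lists, the differences of ARR7 and ARR8 changed sign, to 2.05 and 5.46.

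Strength in gai-YPet went with the presence of a mutant peak across all genes. The 4905 bound genes were divided by strength into 5 equal groups. In the weakest, which held ARR4, ARR5 and ARR9, 69.9% of genes had a peak in gai-YPet cuc2-1 replicate 1 and 8.88% in replicate 2. In the next, which held ARR16, the shares were 91.3% and 20.3%, and 8.15% of genes had no mutant peak. The group of ARR15 had 98.6% and 54.8%, that of ARR8 99.5% and 87.8%, and that of ARR7 100% and 99.6%. The part of strength, of list length and of CUC2 in the missing mutant peaks of ARR4, ARR5, ARR9 and ARR16 was not tested.

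**Figure D3:**
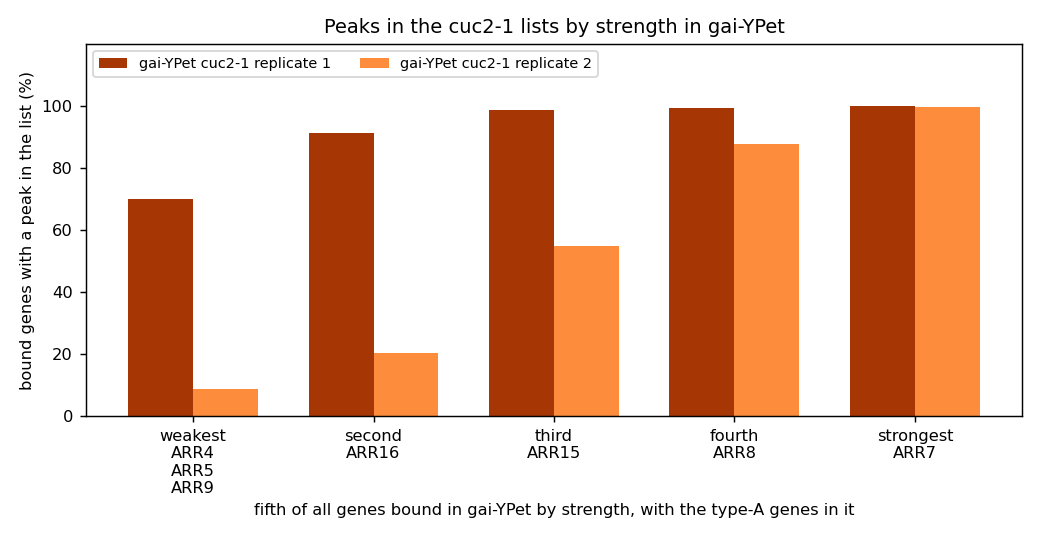
Share of genes bound in gai-YPet that had a peak in each gai-YPet cuc2-1 list (y axis, %), for 5 equal groups of bound genes from weakest to strongest in gai-YPet (x axis, with the type-A genes in each). The replicate 2 share climbed from 8.88% to 99.6%, and ARR4, ARR5 and ARR9 lay in the group with the lowest share.

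Other genes of the cytokinin pathway, 57 in 9 groups, were bound in gai-YPet most often in the groups that degrade or activate the hormone. In gai-YPet 18 of the 57 were bound (31.6%, against the 17.9% of all genes) and in gai-YPet cuc2-1 8 (14.0%, against 10.0%). Of the 7 CKX genes for cytokinin oxidases, which degrade the hormone, 5 were bound in gai-YPet and 4 in the mutant. CKX5 had folds of 5.62 and 3.78 in gai-YPet, against 4.73 and 3.66 in gai-YPet cuc2-1, and CKX1 had 5.75 and 4.18, then 4.16 and 3.19. Of the 9 LOG genes for the enzymes that release active cytokinin, 5 and 2 were bound.

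In the LOG group LOG8 was the strongest, with folds of 9.67 and 5.68 in gai-YPet, against 8.18 and 6.36 in gai-YPet cuc2-1, above ARR7 in each list. LOG3 had 6.18 and 5.34, then 4.14 and 3.18, near the values of ARR7 in gai-YPet. Of the 3 receptor genes AHK4 was bound in both genotypes, with folds of 4.70 and 5.76, then 3.91 and 2.58.

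Among the 11 genes for DNA-binding type-B response regulators, 3 were bound in gai-YPet and 1 in the mutant. ARR20 had 3.74 and 3.39 in gai-YPet, then 2.52 and 3.12, and ARR18 had 2.71 and 2.51 in gai-YPet and 3.00 in gai-YPet cuc2-1 replicate 1 only. Of the 6 CRF genes, which encode cytokinin response factors, 3 were bound in gai-YPet and 0 in the mutant, with 3.39 and 3.31 at CRF1 and 2.05 and 3.02 at CRF2. In gai-YPet cuc2-1 replicate 1 these genes had folds of 3.20 and 2.19, and in replicate 2 no peak. The transport group of 2 had ABCG14, an exporter of root-made cytokinin, bound in gai-YPet at 2.22 and 2.25, and a fold of 2.28 there in gai-YPet cuc2-1 replicate 1 only.

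None of the 6 AHP phosphotransfer genes, the 11 synthesis genes or the 2 type-C response regulator genes was bound in either genotype. Of them 4, 5 and 2 had no peak in any tagged list, as was the case for 66.8% of all genes. The type-A share in gai-YPet, 7 of 10, thus stood near that of the CKX genes, 5 of 7, and above that of the type-B genes, 3 of 11. In gai-YPet cuc2-1 the type-A share was 30% and the CKX share 57.1%. The strength in gai-YPet of the bound CKX genes ran from 56.1 to 88.5. That of the bound type-A genes ran from 11.3 to 92.7, with a median of 44.5. These groups are small, and the differences between them were not tested. For the genes outside the type-A group, neighbours that share a summit are not given here. Over all genes bound in gai-YPet, 50.3% shared their leading summit with another protein-coding gene.

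**Figure D4:**
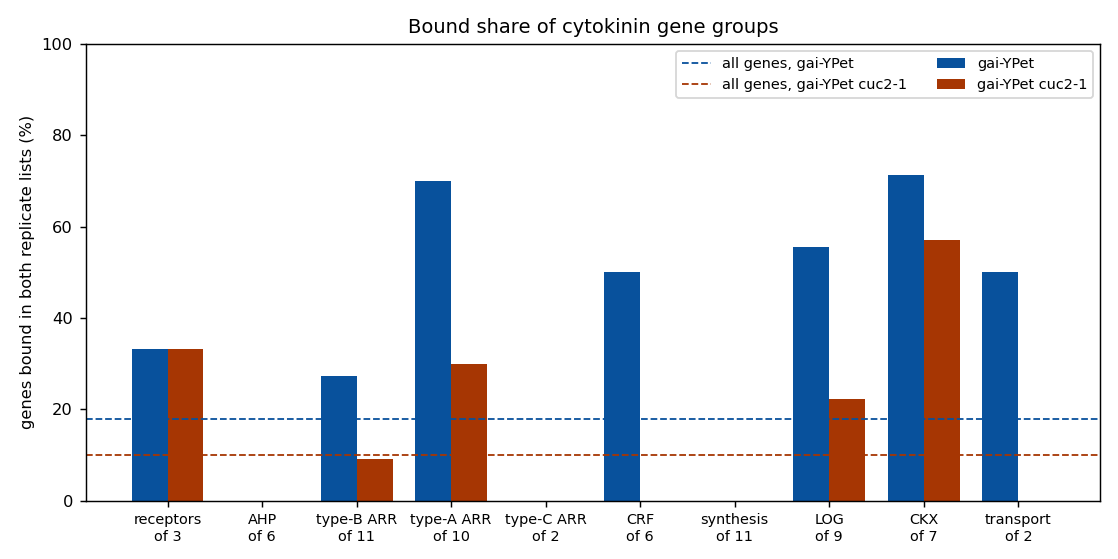
Share of genes bound in both replicate lists (y axis, %) for 10 groups of cytokinin genes in gai-YPet and gai-YPet cuc2-1 (x axis, with the number of genes in each); dashed lines mark the share over all protein-coding genes, 17.9% and 10.0%. Type-A and CKX genes had the tallest gai-YPet bars, 70.0% and 71.4%, and the AHP, synthesis and type-C groups had none.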

How the data were processed

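Peaks were called by the authors for each ChIP replicate, giving 6 lists, with MACS2 among the tools and TAIR10 as the build per the submitters' processing notes; no version or setting is known here. A deposited peak carries a fold enrichment ratio, a −log10 p, a −log10 q and a score. The authors' score was 10 times the −log10 q without its decimals. In lists of replicate 2 the fold and −log10 columns were deposited with displaced decimal marks, and 5 decimals were restored. The score then matched the −log10 q in every line. It does not check the fold, for which the same 5 decimals were assumed.

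Lists were assigned to ChIP samples by the file name in the labels. Genes came from a RefSeq table of assembly TAIR10.1, which is the Columbia strain and gives no strand; 6 members matched by symbol and 4 by alias, and all 67 cytokinin genes by locus tag. Use of its gene limits assumes that nuclear positions equal those of TAIR10. As a check, 30.6% to 33.9% of gai-YPet replicate 1 summits per chromosome lay inside protein-coding genes, against 53.4% to 60.7% after a shift of 5000 bp.

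Tagged peaks overlapping a Ler peak were not used for calls. Members and lists were chosen with earlier results of these data known. Named genes were all members, protein-coding neighbours sharing an assigned summit, and up to 2 of the strongest bound genes of each other cytokinin group; GLP7, WRKY70 and AT3G56390 were named after their values were seen. The planned motif search was not run, since no sequence was used here. The calls were checked on simulated lists. Alternatives were other gene windows, any-base assignment, the stronger 50% of each list, equal lengths, a 50% reciprocal overlap, no overlap, control peaks kept, each list left out and a replicate block. Python 3.11.15, numpy 2.4.6, scipy 1.17.1 and matplotlib 3.10.9 were used.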

Additional observations from a re-analysis of the deposited data

How the results depend on the processing

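The count of members bound in gai-YPet (7) was 3 with the gene alone as window (6.1% of all genes), 3 with the stronger 50% of each list (10%) and 3 with lists of equal length (9.55%). It was 5 with a reciprocal overlap of 50% (11.9%), 5 with 500 bp (13.4%) and 8 with 3000 bp (30%) on each side. It was 7 to 8 with each list left out in turn (17.9% to 31.8%) and 7 to 8 otherwise (17.9% to 19.7%). Calls in gai-YPet ended for ARR7 and ARR16 with the reciprocal overlap, for ARR5 and ARR8 with 500 bp, for ARR4, ARR5, ARR7 and ARR8 with the gene alone, and for ARR4, ARR5, ARR9 and ARR16 with the stronger 50% or equal lengths. The count in gai-YPet cuc2-1 (3) was 0 with the gene alone (3.38%) and 5 with 3000 bp (17.9%). It was 3 to 7 with each list left out in turn (10% to 20.8%) and 2 to 4 otherwise (5.52% to 10.9%). The count bound in gai-YPet with no mutant peak (1, ARR16) was 0 with the stronger 50%, 0 with equal lengths and 0 with a reciprocal overlap of 50%. It was 1 to 4 with each list left out in turn and 1 otherwise. Over all genes bound in gai-YPet the share was 7.91% in the full lists and 45.7% without gai-YPet cuc2-1 replicate 1. For the other settings no such share is given. Shorter lists hold fewer peaks by construction; the cause of the other shifts was not tested. The rank differences of ARR7 and ARR8 reversed to 2.05 and 5.46 with lists as deposited, and that of ARR15 was 37.2. With each list left out they ranged from -8.09 to -2.84 for ARR7, from -28.5 to 9.07 for ARR8 and from 15.5 to 19.2 for ARR15. The labels give replicates of all genotypes the same numbers but call them independent. With the replicate block the differences stayed -5.47, -9.70 and 17.3, with exact sign-flip p = 0.5, 1 and 0.5 (0.5 is the smallest possible). Over 2155 genes with peaks in all 4 reduced lists, replicate deviations of the 2 genotypes had a correlation of 0.00. Without read counts, depth could not be weighed.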
